A study of Mus musculus with 12 samples.

Results

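Malat1 and Neat1 are the 2 entries described here, out of 35129 gene entries in the deposited count table. They were taken by their symbols and followed across 10 libraries in 4 groups. The libraries held RNA from fluorescent cells aspirated from the cortex of male mice aged 5 to 7 weeks. Sst-neurons came from GIN mice on an FVB strain background, whose enhanced green fluorescent protein labels one group of interneurons that make somatostatin (Sst). Thy1-neurons came from YFPH mice on a B6 background, in which pyramidal neurons of layer V make yellow fluorescent protein from the Thy1 promoter. All mice carried a subcutaneous mini pump for 14 days, which delivered nicotine hydrogen tartrate at 48 mg/kg/d (Sst+Nic and Thy1+Nic) or saline (Sst and Thy1). The Sst and Thy1+Nic groups had 3 libraries each. The Sst+Nic and Thy1 groups had 2 each, and their replicates numbered 1 were not analysed here. Cells were taken 10 at a time in repeated aspirations from each mouse, and each library stood for 1 mouse. Since strain and cell type changed together, a difference between Sst- and Thy1-neurons cannot be told apart from one between the strains.

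Malat1 and Neat1 are long noncoding RNAs that stay in the nucleus and are transcribed from neighbouring genes. Malat1 is one of the most abundant nuclear RNAs of neurons, collects in nuclear speckles, where splicing factors are stored, and is not needed to form them. Neat1 is the RNA scaffold on which paraspeckles are built. Its short isoform ends in an ordinary poly(A) tail, whereas its long isoform, which is the one needed for paraspeckles, does not. The ends of Malat1 and of long Neat1 are made by RNase P, which cuts in front of a tRNA-like fold. The end is then protected by a triple helix of U-rich stretches and an A-rich stretch that is encoded in the genome. The question addressed was how much of these RNAs each cell type contained and whether the amount differed with nicotine.

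Both genes lie on the minus strand of chromosome 19 in the GRCm38 build. Malat1 spans 5795690 to 5802672 and is annotated by GENCODE as 1 unspliced exon of 6983 bases, beside shorter transcripts. Neat1 spans 5824708 to 5845480 in RefSeq, and its gap to Malat1 is 22.0 kb. Its long transcript is 1 exon of 20771 bases, and its short transcript, Neat1-202, has 3004 bases and ends at 5842307. The libraries were primed with oligo-dT, so the 3′ ends are shown. The first pair is Malat1 in front of the tRNA-like RNA (chr19:5795982-5796081) and the last 100 bases of long Neat1 (chr19:5824708-5824807). Capitals mark runs of at least 10 bases that the other sequence also holds.

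Malat1: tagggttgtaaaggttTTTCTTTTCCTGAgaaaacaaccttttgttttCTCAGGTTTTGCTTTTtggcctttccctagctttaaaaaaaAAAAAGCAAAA

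Neat1 long isoform: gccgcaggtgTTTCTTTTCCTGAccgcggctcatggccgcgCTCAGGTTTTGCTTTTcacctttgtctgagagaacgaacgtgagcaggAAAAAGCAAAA

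The shared runs covered 40 of the 100 bases in each RNA and came in the same order. They were 2 U-rich runs of 13 and 16 bases and a final A-rich run of 11 bases, written with T as in the transcript files. The ends differed in their adenines: the longest run of A was 12 bases in Malat1 and 5 in long Neat1. The Malat1 run was the only run of 8 or more A in its transcript of 6983 bases, and long Neat1 had 0 such runs. The short Neat1 isoform ends instead behind a polyadenylation signal, the hexamer in capitals, which lies 14 bases before its end (chr19:5842307-5842406). The tRNA-like RNA cut from Malat1, Mascrna (chr19:5795924-5795981), is shown last and had no entry of its own in the table.

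Neat1 short isoform: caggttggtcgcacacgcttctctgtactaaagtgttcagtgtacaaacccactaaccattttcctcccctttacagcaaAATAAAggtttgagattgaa

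Mascrna: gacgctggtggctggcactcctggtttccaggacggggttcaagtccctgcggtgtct

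The libraries held between 2915738 and 4878326 counted fragments, and 3 counts, the upper limit that a count of 0 allows, stood for 0.615 to 1.03 CPM (counts per 1000000 of all counts). Most names that could be compared stand beside values other than those the study gives for these genes. In Sst, 1046 of 1395 nuclear genes compared held under 5% of the study's value. Genes are therefore named only from 904 entries in stretches of chromosomes where the values followed, and in the mitochondrial genome. In such a stretch every gene compared held 0.3 to 3 times the study's value, and at least 2 were within 1% of it. Neat1 had group values of its own to compare, but the one in Sst was a match of no counts with none, and the one in Thy1+Nic was near without being equal. Malat1 had none, so both names rest largely on genes to either side in the stretch of chromosome 19, and every value below depends on this. The values followed less closely along chromosome 16, where Sst, Cldn5 and Tra2b lie. There 15 of 42 genes compared were within 1% of the study's value, and the range was 30.8% to 119%. On chromosome 19 it was 8 of 12 genes, with a range of 98.2% to 115%. The 7 marker lists held 28 genes, and 2 of these could be named. Sst itself stood between 53779 and 126088 CPM in the 5 libraries of Sst-neurons and at or below 49.2 CPM in 4 libraries of Thy1-neurons, but at 3795 CPM in Thy1 replicate 3. Cldn5, an endothelial gene, had counts in 4 libraries, at 35.7 CPM in Sst replicate 2, 13.1 in Sst+Nic replicate 3, 12.1 in Thy1+Nic replicate 1 and 7.36 in Thy1+Nic replicate 3. Markers of pyramidal neurons were not in position-checked entries. The 13 mitochondrially encoded genes held 16.3% to 22.1% of counts in Sst-neurons and 31.4% to 38.5% in Thy1-neurons, so the shares of Malat1 are also given without them.

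Malat1 was among the 8 entries with the most counts in every library and stood in first place in Sst+Nic replicate 3. Of the 891 position-checked nuclear entries it had the most counts in all 5 libraries of Thy1-neurons and in Sst+Nic replicate 3. In the other 4 libraries only Sst had more. In Sst its share of all counts was 3.07% in replicate 1, 8.47% in replicate 2 and 6.74% in replicate 3. In Sst+Nic it was 4.54% in replicate 2 and 9.21% in replicate 3. These 5 values were spread widely, and the highest was from a nicotine library and the lowest from a saline library. In Thy1 it was 4.24% in replicate 2 and 2.69% in replicate 3. In Thy1+Nic it was 4.42%, 3.44% and 3.34% in replicates 1, 2 and 3. The libraries of Thy1-neurons lay closer together than those of Sst-neurons, and Sst replicate 1 lay within their range. Counting error was small beside this spread: the 95% Wilson interval of the highest share ran from 9.18% to 9.24% and that of the lowest from 2.67% to 2.71%. These intervals, and the limits set by 0 counts, leave out every error but that of counting.

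**Figure D1:**
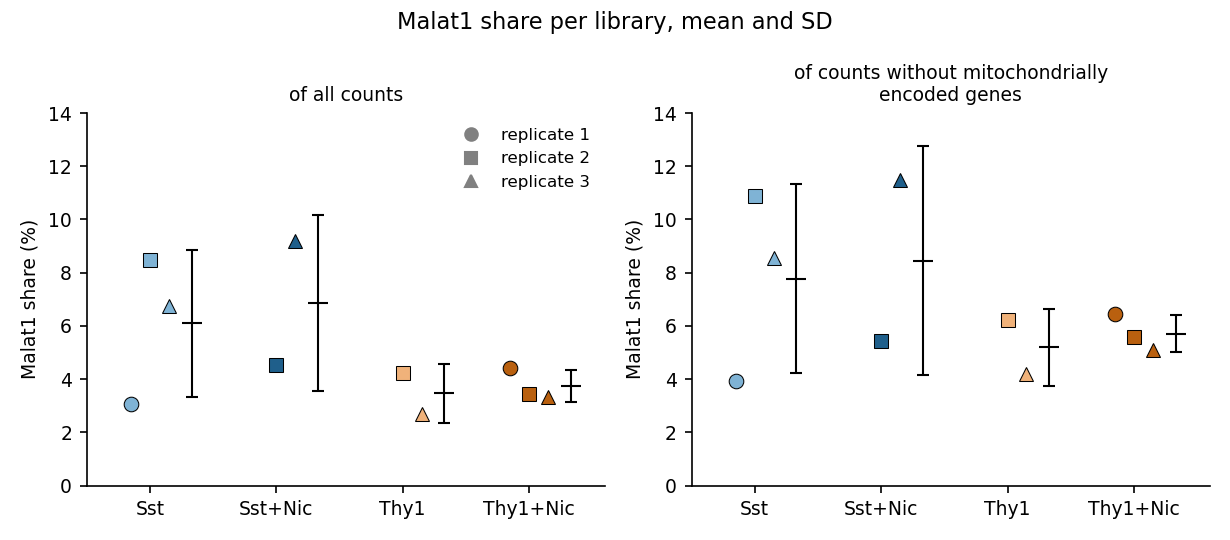
Share of Malat1 in each library (y axis, %) by group (x axis), of all counts on the left and of counts without the 13 mitochondrially encoded genes on the right. Marker shapes are replicates, and the bar beside each group is the mean with the SD (n = 3, 2, 2 and 3). On the left, Sst-neurons run from 3.07% to 9.21% and Thy1-neurons from 2.69% to 4.42%.

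Group means were 6.09% ± 2.76 in Sst (SD, n = 3), 6.87% ± 3.30 in Sst+Nic (SD, n = 2), 3.47% ± 1.10 in Thy1 (SD, n = 2), while Thy1+Nic had 3.73% ± 0.599 (SD, n = 3). In the order Thy1, Thy1+Nic, Sst, Sst+Nic, each pair of neighbours overlapped in its libraries. The highest library of a group exceeded the lowest 2.76-fold in Sst, 2.03-fold in Sst+Nic, 1.58-fold in Thy1 and 1.33-fold in Thy1+Nic. Without the mitochondrially encoded genes the shares were 3.91%, 10.9% and 8.55% in Sst and 5.42% and 11.5% in Sst+Nic. In Thy1 they were then 6.21% and 4.18%, and in Thy1+Nic 6.45%, 5.6% and 5.08%. With this denominator the group means were 7.78% ± 3.54 in Sst (SD, n = 3), 8.46% ± 4.29 in Sst+Nic (SD, n = 2), 5.19% ± 1.43 in Thy1 (SD, n = 2), while Thy1+Nic had 5.71% ± 0.690 (SD, n = 3). The means of the 4 groups kept their order, and the cell types lay closer together. In bulk samples such as these, fewer cells of a type and less RNA per cell cannot be told apart.

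Malat1 did not differ with nicotine beyond the spread between libraries in either cell type. In Sst-neurons the mean share was 0.780 percentage points higher with nicotine (two-sided exact permutation test, p = 0.8, adjusted p = 0.9). This and each further adjusted p of a share covers 8 tests, 4 comparisons of 2 genes. Its fitted log2 fold change was -0.06 (edgeR quasi-likelihood test, standard error (SE) 0.55, adjusted p = 1.000), and 0% of the 6689 entries tested were called, a call being an adjusted p under 0.05 with an absolute log2 fold change above 1. At an unadjusted p under 0.05 there were 280 entries, and DESeq2 called 19. Without the mitochondrially encoded genes the difference in share was 0.676 percentage points (exact permutation test, p = 0.8, adjusted p = 0.8). With Sst left out as well it was 0.182, and of uniquely mapped read pairs it was -0.0266 percentage points. The fitted value changed sign with the scaling: it was 0.17 with library totals and no TMM, where the median of all entries was 0.27. It was also moved by single libraries, from -0.86 without Sst+Nic replicate 3 to 0.42 without Sst+Nic replicate 2.

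In Thy1-neurons the mean share of Malat1 was 0.268 percentage points higher with nicotine (two-sided exact permutation test, p = 0.9, adjusted p = 0.9). It was 0.518 percentage points higher without the mitochondrially encoded genes (exact permutation test, p = 0.6, adjusted p = 0.8). The fitted log2 fold change was 0.24 (edgeR, SE 0.26, adjusted p = 1.000), with 0% of 6048 entries called, 264 at an unadjusted p under 0.05 and 14 called by DESeq2. Without Thy1 replicate 3, the library of Thy1-neurons with the most Sst counts, it was 0.04, and the difference in mean share was then -0.508 percentage points. A comparison of 3 against 2 libraries cannot give an exact p below 0.1. The change in share with nicotine was 0.512 percentage points larger in Sst- than in Thy1-neurons (exact permutation of nicotine within cell types, 100 arrangements, p = 0.87). In the edgeR fit of all 10 libraries this interaction was -0.30 on the log2 scale (SE 0.63, adjusted p = 0.999), and 0% of 8242 entries were called, with 604 at an unadjusted p under 0.05 and 11 called by DESeq2.

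Between the cell types, Malat1 had the higher mean share in Sst-neurons under both treatments, but the edgeR test on the groups called it under neither. The direction of this difference in share depended on the denominator. Of position-checked nuclear counts, which hold Sst itself, it was -1.77 percentage points between Sst and Thy1. An edgeR fit of the position-checked entries alone kept the direction, with a log2 fold change of 0.85 (adjusted p = 0.383). Without nicotine the difference was 2.63 percentage points, with overlapping libraries (two-sided exact permutation test, p = 0.3, adjusted p = 0.6). The log2 fold change was 0.71 (edgeR, SE 0.48, adjusted p = 0.559), where 1.72% of 6351 entries were called. Without Sst replicate 2 it was 0.26. It was 0.49 without Thy1 replicate 3. After nicotine the difference in share was 3.14 percentage points without overlap between the libraries (p = 0.1 in a two-sided exact permutation test, the smallest possible, adjusted p = 0.267). They did overlap once the mitochondrially encoded genes were left out, with a difference of 2.74 percentage points (exact permutation test, p = 0.3, adjusted p = 0.8). The log2 fold change was 0.42 (edgeR, SE 0.40, adjusted p = 0.762), where 0.507% of 6509 entries were called. Without Sst+Nic replicate 3, the library with the highest share, it was -0.38.

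Over both treatments, in a comparison added after the values were seen, the mean difference in share between Sst- and Thy1-neurons was 2.88 percentage points (exact permutation of cell type within treatments, 100 arrangements, p = 0.09). It was 2.67 percentage points without the mitochondrially encoded genes (exact permutation test, p = 0.18), and it turned to -0.749 percentage points of position-checked nuclear counts (exact permutation test, p = 0.84). In an additive edgeR fit of cell type and nicotine the log2 fold change was 0.56 (SE 0.32, adjusted p = 0.369), where 4.62% of 8242 entries were called. Fitted to the position-checked entries alone, the log2 fold change was 0.71 (edgeR, adjusted p = 0.196). Without a filter on low counts the adjusted p of edgeR was 0.00616 at a log2 fold change of 0.57, and 0.0456 at 0.71 for Sst against Thy1, both under the fold change that a call requires. The low share of mitochondrially encoded genes moved with Sst-neurons, and its part in the Malat1 difference was not tested beyond leaving these genes out. Sst itself took a large part of the counts of Sst-neurons, and with Sst left out as well the difference between Sst and Thy1 was 3.76 percentage points (exact permutation test, p = 0.3, adjusted p = 0.6).

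Neat1 had few or no counts in the libraries without nicotine. In Sst it had 0 counts in each of the 3 libraries, which allows up to 0.746, 0.765 and 0.810 CPM. In Thy1 it had 1 count in replicate 2 (0.286 CPM, 95% Wilson interval 0.0506 to 1.62) and 3 counts in replicate 3 (0.824 CPM, 0.280 to 2.42). In Sst+Nic it had 49 counts in replicate 2 (16.8 CPM, 12.7 to 22.2) and 139 in replicate 3 (28.5 CPM, 24.1 to 33.6). In Thy1+Nic it had 107 counts in replicate 1 (30.8 CPM, 25.5 to 37.2), 30 in replicate 2 (7.09 CPM, 4.97 to 10.1) and 0 in replicate 3, which allows up to 0.884 CPM. Thus 4 of the 5 nicotine libraries lay above all 5 saline libraries, and Thy1+Nic replicate 3 lay among the saline libraries. In the order of the group means, Sst, Thy1, Thy1+Nic and Sst+Nic, the saline groups were both within 3 counts of 0, Thy1 and Thy1+Nic overlapped, and so did Thy1+Nic and Sst+Nic.

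**Figure D2:**
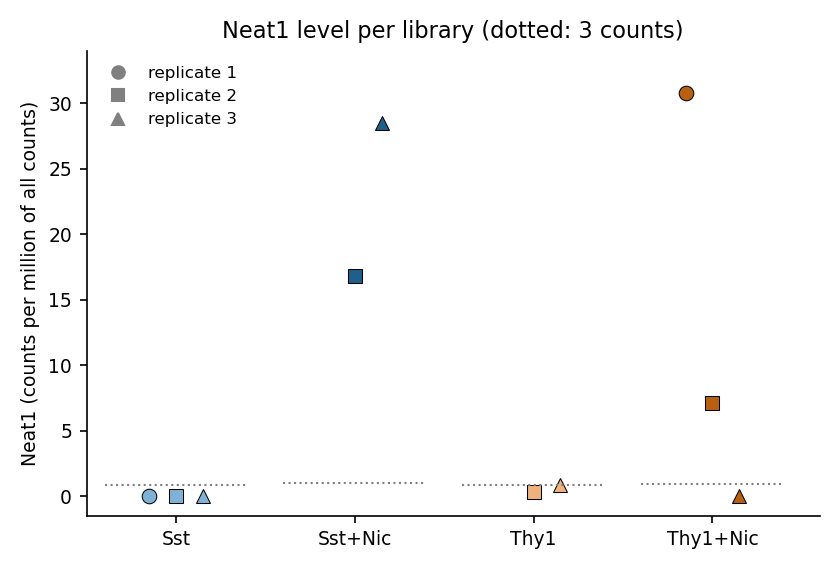
Neat1 in each library (y axis, CPM) by group (x axis), with marker shapes for replicates. The dotted line of each group is the level of 3 counts in its library with the fewest counts; the 2 Sst+Nic libraries stand at 16.8 and 28.5, Thy1+Nic replicates 1 and 2 at 30.8 and 7.09, and all others at or below it.

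In Sst-neurons the mean level of Neat1 was 22.6 ± 8.26 CPM with nicotine (SD, n = 2), at least 28.0-fold higher than the saline level, taken at 3 counts of the Sst library with the fewest counts (0.810 CPM). There was no overlap between the libraries (p = 0.1 in a two-sided exact permutation test, the smallest possible, adjusted p = 0.267). edgeR did not call it: the fitted log2 fold change was 9.37, which depends on the prior count as the saline libraries are all at 0, with an unadjusted p = 0.00392 and an adjusted p of 1.000. DESeq2 called it (adjusted p = 0.0200). Across all alternatives the adjusted p of edgeR, DESeq2 and limma ranged from 0.0200 to 1.00. Cldn5 had 13.1 CPM in Sst+Nic replicate 3, where Neat1 stood at 28.5 CPM, and 0 in Sst+Nic replicate 2, where Neat1 stood at 16.8 CPM. In Sst it had 35.7 CPM in replicate 2 and 0 in replicates 1 and 3, and Neat1 had 0 counts in all 3. Its part in the Neat1 counts was not tested.

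In Thy1-neurons Neat1 had 137 counts in 3 nicotine libraries against 4 in 2 saline libraries. The ratio of the summed counts per total was 22.0, with an exact interval of 8.40 to 81.9 that covers counting error and leaves out the spread between mice. The mean level was 12.6 ± 16.1 CPM with nicotine (SD, n = 3) and 0.555 ± 0.380 CPM without (SD, n = 2), and the libraries overlapped (two-sided exact permutation test, p = 0.7, adjusted p = 0.9). The log2 fold change was 4.55 (edgeR, SE 2.26, adjusted p = 1.000). Without Thy1+Nic replicate 1, which held most of the counts, it was 2.79, without replicate 3 it was 5.12, and without Thy1 replicate 3 it was 5.55. Cldn5 had 12.1, 0 and 7.36 CPM in Thy1+Nic replicates 1, 2 and 3 and 0 in both Thy1 libraries (edgeR unadjusted p = 0.0484, adjusted p = 1.000). Of these 3 nicotine libraries Neat1 had counts in replicates 1 and 2, so only replicate 1 held both genes. The part of Cldn5 was not tested here either.

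The effect of nicotine on Neat1 was 10.6 CPM larger in Sst- than in Thy1-neurons, which was within the spread (exact permutation of nicotine within cell types, 100 arrangements, p = 0.59). The edgeR interaction was 4.60 on the log2 scale (SE 2.62, adjusted p = 0.746), a value that depends on the prior count as the Sst libraries are all at 0. Both cell types were also compared jointly, a comparison added after the values were seen. Averaged over the cell types, the mean Neat1 level was 17.4 CPM higher with nicotine (exact permutation of nicotine within cell types, 100 arrangements, p = 0.03). Without the mitochondrially encoded genes the difference was 22.9 CPM of the remaining counts (exact permutation test, p = 0.06). In the additive edgeR fit the log2 fold change was 6.23 (SE 1.60, unadjusted p = 0.00174, adjusted p = 1.000), and 0% of 8242 entries were called, with 340 at an unadjusted p under 0.05 and 2 called by DESeq2. The adjusted p of Neat1 was 0.0628 in DESeq2 and 0.0109 in edgeR without a filter on low counts. Malat1 in the same fit had a log2 fold change of 0.11 (edgeR, SE 0.32, adjusted p = 1.000).

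Between the cell types without nicotine, 0 counts in each Sst library stood against 1 and 3 counts in Thy1, at or under the limit that 0 counts allow. The fold fitted to them is therefore printed without being read as an effect. The difference was -0.555 CPM (Sst minus Thy1; p = 0.1 in a two-sided exact permutation test, which can go no lower, adjusted p = 0.267). edgeR did not call it (log2 fold change -4.28, SE 2.01, adjusted p = 0.384), a value that depends on the prior count. After nicotine the libraries overlapped, with a difference of 10.0 CPM (Sst+Nic minus Thy1+Nic; two-sided exact permutation test, p = 0.5, adjusted p = 0.8). The log2 fold change was 0.33 (edgeR, SE 1.59, adjusted p = 0.977), and it was -0.24 without Thy1+Nic replicate 3 and 2.07 without replicate 1.

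**Figure D3:**
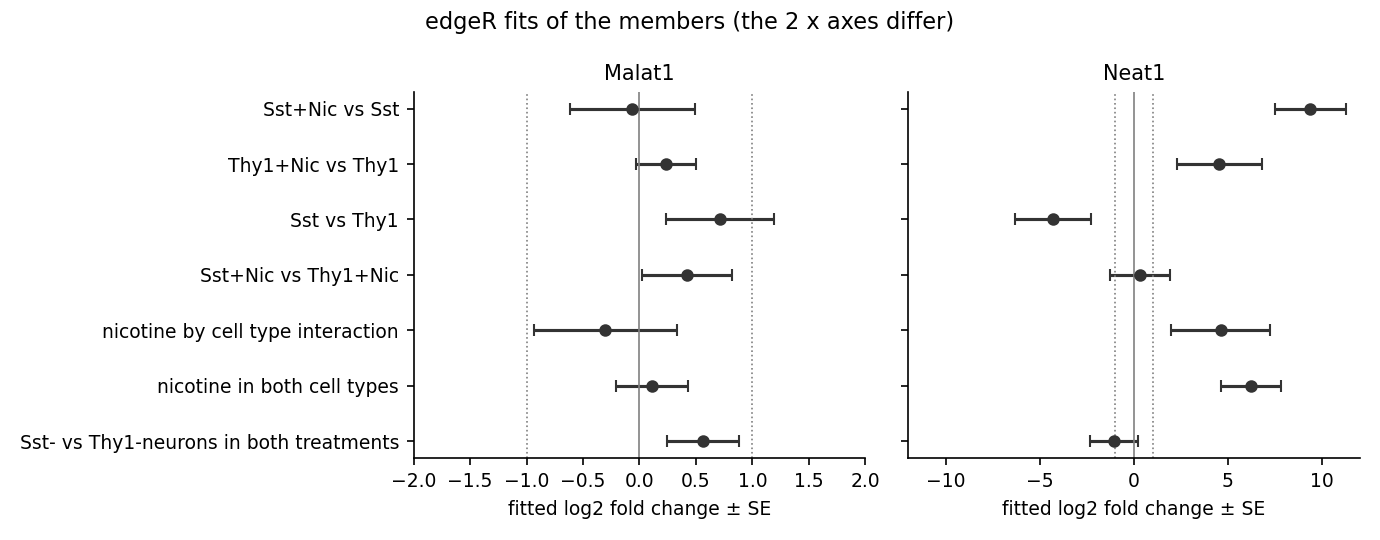
Fitted log2 fold changes with their standard errors (x axes, which differ in range) for Malat1 on the left and Neat1 on the right, in the 4 comparisons of 2 groups, the interaction and the 2 terms of the additive fit (y axis). Dotted lines mark a log2 fold change of 1 in either direction; Malat1 lies between -0.30 and 0.71, and Neat1 between -4.28 and 9.37, none of them called.

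Per length of annotated exon, Malat1 exceeded Neat1 wherever Neat1 could be quantified. The ratio of counts per kb was 8035 in Sst+Nic replicate 2, 9614 in Sst+Nic replicate 3, 4270 in Thy1+Nic replicate 1 and 14444 in Thy1+Nic replicate 2. In the Sst libraries it was at least 122570, 329214 and 247616, and in Thy1+Nic replicate 3 at least 112313, with Neat1 taken at 3 counts and at its long length. With the length of the short Neat1 isoform the 4 ratios were 1162, 1390, 617 and 2089, and the limits were 17727, 47612, 35811 and 16243. The table does not say which Neat1 isoform the counts came from. Among the 45 position-checked entries of the same type in the table (miscRNA), Malat1 ranked first by mean CPM over the 10 libraries and Neat1 ranked 7th, a rank that rests on the nicotine libraries.

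RefSeq lists 15 other genes within 100 kb of the pair, of which 11 had an entry, all position-checked. Between 8 and 9 of the 11 passed the filter on low counts, and none was called in any of the 7 fits. As 0% to 4.62% of all entries were called in these fits, this is near the background. Frmd8, which codes for a partner of the sheddase-regulating iRhom proteins, is the nearest in the direction of Neat1, at 5.49 kb. It had 9.2, 0.255 and 27 CPM in Sst and 15.4 and 12.7 in Sst+Nic, and its fitted log2 fold change there was 0.03 (edgeR, SE 1.51, adjusted p = 1.000). Frmd8 had 4.9, 20.3 and 0 CPM in Thy1+Nic and 0 and 6.86 in Thy1. Like Neat1 it was at 0 in Thy1+Nic replicate 3, but unlike Neat1 it had counts in all 3 Sst libraries (37, 1 and 100). The 1 count in Sst replicate 2 is under the limit that 0 counts allow. Ltbp3, which binds latent TGF-beta, had 39.0 to 59.7 CPM in the 5 libraries of Sst-neurons, against 0, 1.92, 0, 20.3 and 0 in those of Thy1-neurons. Its log2 fold change between Sst and Thy1 was 5.40 (edgeR, SE 1.30, adjusted p = 0.105). Over the 11 neighbours the median log2 fold change with nicotine was 0.18 in the 9 tested in Sst-neurons and 0.14 in the 8 tested in Thy1-neurons, beside medians of all entries of 0.05 and -0.003.

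**Figure D4:**
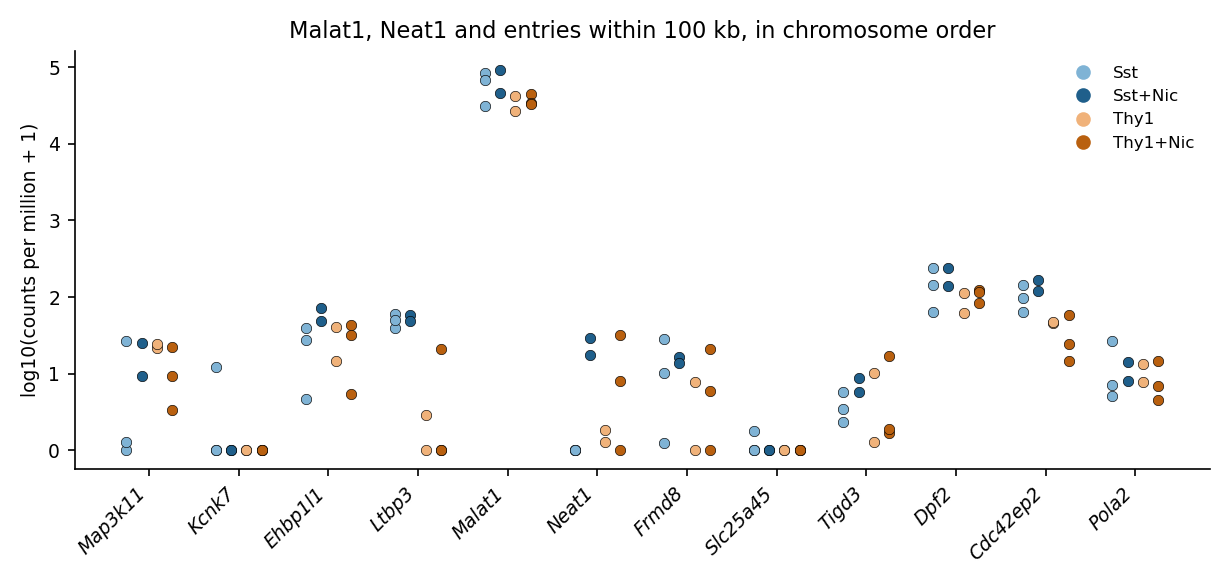
Levels of Malat1, Neat1 and entries within 100 kb, in chromosome order on the x axis, as log10(CPM + 1) on the y axis. Each point is a library, coloured by group; values are not divided by length. Malat1 stands above 4 in every library, and Neat1 is the entry that is at 0 in all 3 Sst libraries and above 1 in both Sst+Nic libraries.

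Of the lists of proteins that work with these RNAs, few members could be read. Of 32 paraspeckle proteins, 2 were position-checked, Rbm14 and Rbm4b. Rbm14, which is needed to assemble paraspeckles, had 68.6, 31.1 and 24.6 CPM in Sst and 90.9 and 89.8 in Sst+Nic. Between these groups its log2 fold change was 0.96 (edgeR, SE 0.50, unadjusted p = 0.0963, adjusted p = 1.000). In Thy1 Rbm14 had 32.4 and 42.8 CPM and in Thy1+Nic 32.0, 40.4 and 16.2 (edgeR log2 fold change -0.22, SE 0.60, adjusted p = 1.000). Rbm4b, an RNA-binding splicing regulator, had 19.4 to 41.3 CPM in Sst-neurons and 9.88 to 19.4 in Thy1-neurons, so that the 2 cell types met at 19.4. Of 28 nuclear speckle proteins, 2 were position-checked, the splicing factors Sf1, which recognises the branch point, and Tra2b. Sf1 had 168 to 306 CPM in Sst-neurons and 121 to 221 in Thy1-neurons. Tra2b had 354 to 927 CPM in Sst-neurons and 245 to 390 in Thy1-neurons. None of these 4 genes was called in any of the 7 fits, in which 0% to 4.62% of all entries were called, so this too is near the background. Of 14 genes of 3′ end processing and decay and of 50 other long noncoding RNAs, 0 were position-checked.

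The entries whose pattern was most like that of each member were taken from the position-checked entries with a mean of at least 10 CPM, by Pearson's r of log2(CPM + 1) over the 10 libraries. For Malat1, among 414 entries, these were Zfpl1 (r = 0.86), a Golgi zinc finger protein, Cdk2ap2 (r = 0.83), Slc25a1 (r = 0.79), the mitochondrial citrate carrier, Snx15 (r = 0.77), a sorting nexin, and Ranbp1 (r = 0.77), a regulator of the Ran GTPase. Zfpl1 was also first by Spearman's rho (0.98) and without the mitochondrially encoded genes in the total (r = 0.82). For Neat1, among 415 entries, they were Ehd1 (r = 0.72), an endosomal recycling protein, Map2k7 (r = 0.69), a kinase of the JNK pathway, Ccdc85b (r = 0.69), Ehbp1l1 (r = 0.66) and Nfkbiz (r = 0.64), a nuclear inhibitor-like regulator of NF-kappa B. Ehd1 had 5.13 to 10.4 CPM in Sst and 43.9 and 44.7 in Sst+Nic, and 5.22 and 8.31 in Thy1 against 19.6 to 29.8 in Thy1+Nic. Both cell types were without overlap, with log2 fold changes of 2.21 (edgeR, SE 0.72, adjusted p = 1.000) and 1.91 (edgeR, SE 0.74, adjusted p = 1.000). Ehd1 was picked for its likeness to Neat1 in these same libraries, so this is not separate evidence of a nicotine effect. How many other entries were without overlap was not counted. Unlike Neat1, Ehd1 was not lower in Thy1+Nic replicate 3 than in replicates 1 and 2. By Spearman's rho Ehd1 was 20th (0.54), and Ehbp1l1, 69.1 kb from Malat1, was first (0.80). Over the same libraries Malat1 and Neat1 had r = 0.21. These values describe 10 libraries of 2 cell types, in which all entries of a library share its depth, and are the highest among the entries compared.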

How the data were processed

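The authors trimmed paired-end reads from SMARTer (oligo-dT primed) libraries, aligned them to GRCm38 with TopHat and deposited raw counts of fragments per gene entry, without normalization. HTSeq is named in the submitters' processing notes; versions and the counting annotation are not given in the sources used here. The libraries do not mark strand. Two-group comparisons used the quasi-likelihood test of edgeR 4.0.16 (R 4.3.3) on the 5 libraries of the groups, with TMM, filterByExpr (minimum count 10, both members kept) and Benjamini-Hochberg adjustment over all entries. The interaction and the additive model (cell type plus nicotine) were fitted to all 10 libraries. Adjusted p-values that round to 1 are printed as 1.000. Exact permutation tests (Python 3.11.15) compared shares of counts. Alternatives were DESeq2 1.42.0, limma voom 3.58.1, other scalings, filters and denominators, a replicate block, and each library left out in turn. Members, lists and rules were chosen with earlier results of these data known. Entries were named only from 4 stretches of chromosomes 7, 8, 16 and 19 in which the table's values followed the study's group values (less closely on chromosome 16), a rule set after the values were seen. Named besides Malat1 and Neat1 were entries within 100 kb, list members, the 5 entries most like each member, Sst and Cldn5. The scripts were tested on simulated data. Sequences came from the GENCODE transcripts, positions from RefSeq and GENCODE, all GRCm38. One item is not reported here.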

Additional observations from a re-analysis of the deposited data

How the results depend on the processing

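Over 14 fitted values of the members and 262 alternatives, 243 kept their direction and their side of the threshold, 16 changed sign and 3 passed the threshold. The 3 were Neat1 in Sst+Nic against Sst with DESeq2 (8.71, adjusted p = 0.0200), Neat1 with nicotine in both cell types without a filter (6.25, adjusted p = 0.0109, edgeR), and Malat1 in Sst against Thy1 with the replicate block, below. Malat1 in Sst+Nic against Sst changed sign to 0.039 with limma voom, 0.17 with library totals and 0.049 with position-checked entries alone. The Malat1 interaction was 0.066 with library totals, and Neat1 between the cell types in both treatments was 0.97 with limma voom. Library totals without TMM moved the median of all entries from 0.05 to 0.27 in Sst+Nic against Sst and from 0.09 to 0.59 in Sst+Nic against Thy1+Nic, where Malat1 was then 0.88. The cause of these changes was not tested.

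Libraries that share a replicate number did not deviate together (correlations of their deviations from -0.077 to 0.017), so the number was not taken as a pairing. With the replicate number as a block, Malat1 was -0.54 in Sst+Nic against Sst, 0.09 in Thy1+Nic against Thy1, 1.07 in Sst against Thy1 (adjusted p = 0.0492, edgeR) and 0.45 in Sst+Nic against Thy1+Nic. Neat1 under this block was 9.35, 1.22, -4.20 and 3.33 in the same order. The block gave interactions of -0.57 for Malat1 and 7.82 for Neat1, and it left 59 entries called in Sst against Thy1 and 9 in Sst+Nic against Thy1+Nic.

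Leaving out each library in turn, with a lone library assumed to vary like the others, gave Malat1 from -0.86 to 0.42 in Sst+Nic against Sst, 0.04 to 0.51 in Thy1+Nic against Thy1, 0.26 to 1.04 in Sst against Thy1 and -0.38 to 0.91 in Sst+Nic against Thy1+Nic. The Malat1 interaction ran from -1.07 to 0.20, nicotine in both cell types from -0.16 to 0.34, and cell type in both treatments from 0.31 to 0.80. Neat1 ran from 8.66 to 9.81, 2.79 to 5.55, -4.95 to -3.35 and -0.30 to 2.07 in the 4 comparisons, 3.63 to 6.38 for the interaction, 5.82 to 7.37 for nicotine and -1.79 to -0.40 for cell type. Shares of Malat1 ran from 4.91% to 7.60% in Sst, 4.54% to 9.21% in Sst+Nic, 2.69% to 4.24% in Thy1 and 3.39% to 3.93% in Thy1+Nic. Their differences ran from -1.55 to 3.12, -0.508 to 1.04, 1.44 to 4.14 and 0.806 to 5.48 percentage points. Neat1 ran from 16.8 to 28.5 CPM in Sst+Nic, 0.286 to 0.824 in Thy1 and 3.54 to 19 in Thy1+Nic, and its differences from 16.8 to 28.5, 2.99 to 18.4, -0.824 to -0.286 and 3.70 to 19.1 CPM. The median ratio of Malat1 to Neat1 ran from 8035 to 9614. It was 4349 with the shortest transcripts and 1276 with the short Neat1 isoform.

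The denominator moved both the shares and their differences. Of uniquely mapped read pairs, Malat1 was 1.54% in Sst, 1.51% in Sst+Nic (a difference of -0.0266 percentage points), 0.785% in Thy1 and 0.969% in Thy1+Nic, and Neat1 was 4.96 CPM of these pairs in Sst+Nic and 0.131 in Thy1. Of position-checked nuclear counts, which hold Sst itself, Malat1 was 21.7%, 26.6%, 23.5% and 26.3% (Sst against Thy1, -1.77 percentage points), and Neat1 87.9, 3.9 and 85.6 CPM of these counts in Sst+Nic, Thy1 and Thy1+Nic. Without the mitochondrially encoded genes Malat1 was 5.19% in Thy1 and 5.71% in Thy1+Nic, and without the entries named Rnr1 and Rnr2 (names not position-checked) as well 6.01% and 6.54% (Neat1 0.987 CPM in Thy1). With Rnr1 and Rnr2 kept, and Sst left out beside the mitochondrially encoded genes, Malat1 was 5.21% and 5.71%, and 8.96% in Sst.

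Counts of called entries depended on the tool and the filter. DESeq2 called 19, 14, 563 and 508 entries in the 4 comparisons, 11 for the interaction, 2 for nicotine and 861 for cell type. Without a filter edgeR called 8, 13, 454, 356, 36, 14 and 673 in the same order. With at least 10 counts in 1 library it called 7 in Thy1+Nic against Thy1, 266, 275, 27 and 622 in Sst against Thy1, Sst+Nic against Thy1+Nic, the interaction and cell type. limma voom called 65 in Sst+Nic against Thy1+Nic and 693 for cell type, and 1 fit of all 10 libraries called 105 in Sst+Nic against Thy1+Nic. Leaving out a library gave 33 to 55 calls in Sst against Thy1, 0 (without Thy1+Nic replicate 3) to 56 in Sst+Nic against Thy1+Nic, 0 to 5 for the interaction and 296 to 397 for cell type. The denominators without Rnr1 and Rnr2 and without Sst, the position-checked fit, the short isoform and the additive fits were chosen after seeing the data.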
